A study of Mus musculus with 12 samples.

Results

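The Hox genes are the 39 protein-coding genes of the Hoxa, Hoxb, Hoxc and Hoxd clusters, taken here by symbol (Hox, a cluster letter from a to d, and a paralog number) from a table of 57186 genes. Hoxa held 11 of them, Hoxb 10, Hoxc 9 and Hoxd 9. They were measured by sequencing of poly(A) RNA in 12 tumours that grew in mice from 4T1 cells, which come from a mouse mammary carcinoma and serve to model triple-negative disease. In the 6 Tn tumours Cosmc had been silenced with CRISPR/Cas9 in the injected cells. Cosmc (symbol C1galt1c1) is a chaperone that the O-glycan extending enzyme needs, and without it cells show the short Tn antigen. In the 6 WT tumours the injected cells were the parental 4T1 line. All 12 belonged to 1 batch per the labels, and the labels give breast as the tissue. Tumours of different sizes were taken per the design text, and the size of each is not in the labels used here. Whether the silenced line was a single clone, and the strain, sex and age of the mice, are not given in the sources used here. Whole tumour tissue was sequenced, so each level sums the injected cells and the cells of the host, and fewer cells of a type cannot be told apart from less RNA per cell.

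Hox genes encode homeodomain transcription factors. Within a cluster the genes lie in the order in which they are used along the body axis of the embryo, from low paralog numbers in the head and neck to high ones in the trunk, tail and limbs, and genes with the same number in different clusters are close copies. Adult fibroblasts and other mesenchymal cells keep the Hox pattern of the body site they came from. In the mouse mammary gland, Hoxa9, Hoxb9 and Hoxd9 act together in the growth of the gland in pregnancy.

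Library totals ran from 113575859 to 156880766 counts. As a check of the labels, C1galt1c1 had 11.3 ± 0.775 CPM (each gene's share of the library's counts, scaled by TMM) in Tn tumours and 19.6 ± 3.05 CPM in WT tumours (SD, n = 6 each). Its log2 fold change, Tn over WT, was -0.80 ± 0.11 with its standard error (edgeR adjusted p = 0.000201). The keratins Krt8 and Krt18 of simple epithelium, which a mammary carcinoma should hold, were at 1001 and 999 CPM in Tn tumours and at 1147 and 1194 CPM in WT tumours. Of all genes, 19255 were tested, and 19.5% of them rose and 17.4% fell in the Tn group by edgeR's quasi-likelihood test at an adjusted p under 0.05. Some libraries stood apart in their content: Tn tumour 4 held 1064 CPM of B cell markers against at most 11.6 CPM in any other tumour, Tn tumour 6 held 3551 CPM of skin keratinocyte markers, and WT tumour 6 held 2277 CPM of adipocyte markers, so that results are also given without these 3.

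Most Hox genes fell in Tn tumours. Of the 39 genes, 28 had enough counts to be tested, of which 21 fell, 1 rose and 6 did not pass the threshold. The share called in either direction was 36.8% over all genes tested. The 21 are 75% of the Hox genes tested, beside 17.4% of all genes tested. Without Tn tumours 4 and 6 and WT tumour 6, 19 Hox genes fell and 1 rose. The median log2 fold change was -0.86 over the 28 Hox genes and 0.01 over all genes tested. In 16 Hox genes (57.1%) the highest Tn tumour was below the lowest WT tumour, an arrangement found in 8.35% of genes tested, and in 0 Hox genes did all Tn tumours lie above all WT tumours, against 8.81% of genes tested. A fall of at least 2-fold was found in 11 Hox genes, namely Hoxa9, Hoxb2, Hoxb3, Hoxb9 and 7 of the Hoxc cluster. The share of all genes tested with such a fall was not computed. Of the 15 tested Hox genes that share no exon base with another gene, 11 fell and 1 rose, and of the 13 that share some, 10 fell.

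**Figure D1:**
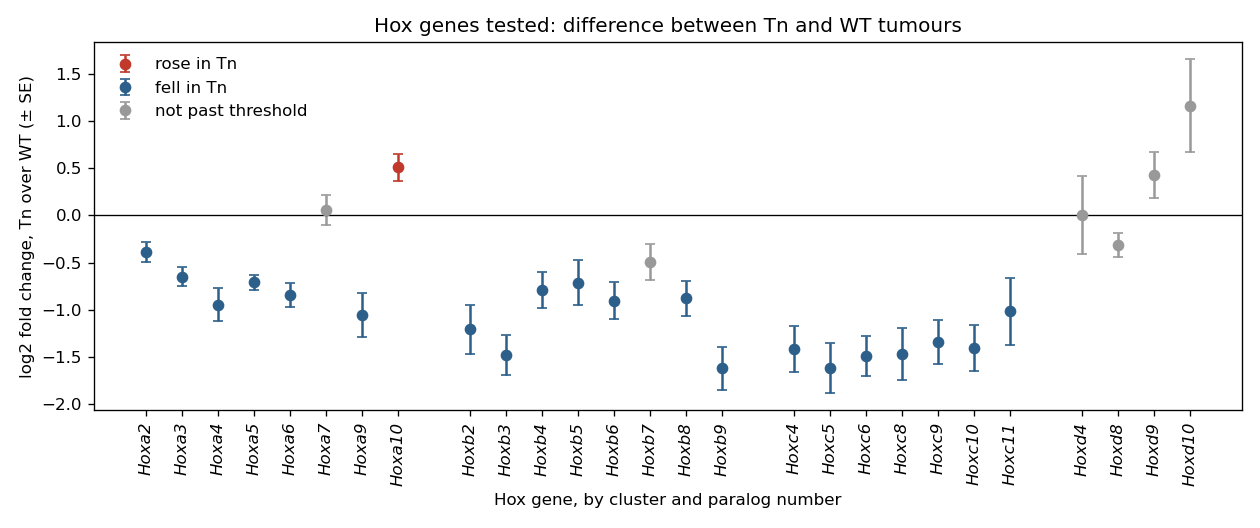
Log2 fold change (Tn over WT, vertical axis) with its standard error for 27 of the 28 tested Hox genes, ordered by cluster and paralog number. The 7 Hoxc genes lie between -1.62 and -1.02, Hoxa10 alone is past the threshold above 0, and the 4 Hoxd genes are not past it.

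By level, the Hoxa cluster carried most of the Hox RNA. It made up 87.5 ± 2.87% of the Hox CPM in Tn tumours and 84.5 ± 2.45% in WT tumours (SD, n = 6 each). Hoxa5 alone took 52.7 ± 2.05% of the Hoxa CPM in Tn tumours and 61.3 ± 1.60% in WT tumours, so the Hoxa values follow it closely. The sums here are of CPM and are not scaled by exon length. The Hoxa sum was 181 ± 23.5 CPM in Tn tumours and 253 ± 18.2 CPM in WT tumours. The Hoxb sum was 8.52 ± 1.14 CPM in Tn tumours and 15.98 ± 2.67 CPM in WT tumours. For Hoxc it was 7.64 ± 2.13 CPM in Tn and 20.7 ± 5.16 CPM in WT tumours, and for Hoxd 9.16 ± 1.64 CPM in Tn and 9.64 ± 0.782 CPM in WT tumours. As a share of the WT mean, the Tn tumours thus held 71.3% of the Hoxa, 53.3% of the Hoxb, 37.0% of the Hoxc and 95.0% of the Hoxd level. The Tn and WT sums did not overlap for Hoxa, Hoxb and Hoxc and did overlap for Hoxd.

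**Figure D2:**
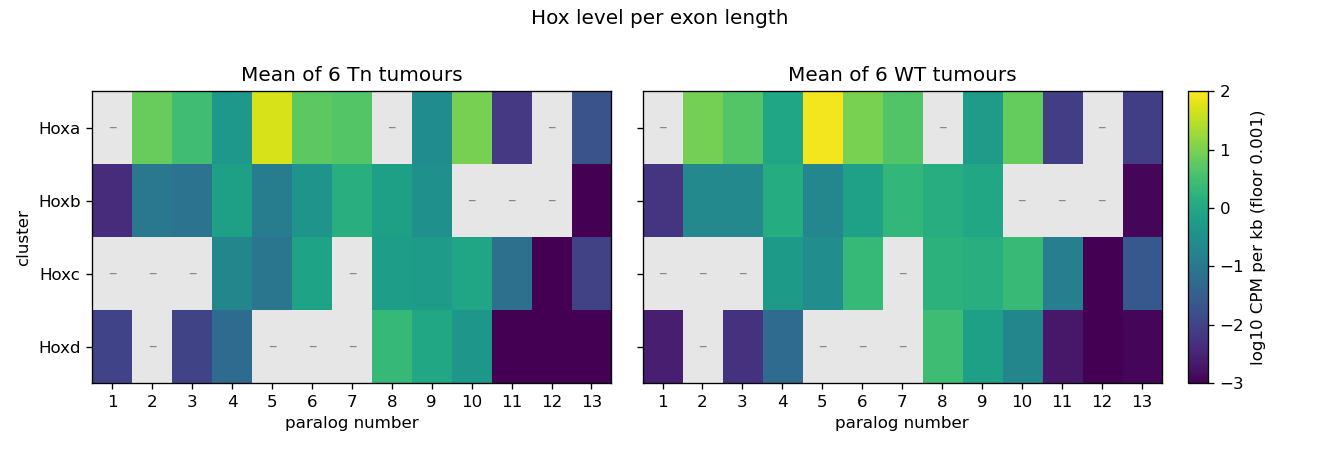
Mean level of 38 of the 39 Hox genes per kilobase of exon (colour, log10 of CPM per kb), by cluster (rows) and paralog number (columns), in Tn tumours (left) and WT tumours (right); grey marks a paralog that the cluster does not have or that is not shown. Hoxa5 is the brightest cell in both groups, and no paralog numbered 11 to 13 is above 0.145 CPM per kb.

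Per kilobase of exon, a scale that takes gene length into account, Hoxa5 stood far above the others, at 50.5 CPM per kb in Tn tumours and 82.7 CPM per kb in WT tumours. Exon bases shared with another gene add length but no reads, so genes with such bases read too low on this scale. Of the genes named next, Hoxa2 shares 15% of its exon bases, so its order against Hoxa6 in WT tumours is uncertain. The next were Hoxa10 (9.29 in Tn and 6.52 in WT), Hoxa2 (6.85 in Tn and 8.97 in WT) and Hoxa6 (5.39 in Tn and 9.68 in WT). In Tn tumours Hoxa10 was thus the second in the order, whereas in WT tumours it was the fourth. The highest of the other clusters were Hoxd8 (2.22 in Tn and 2.76 in WT), Hoxc10 (0.922 in Tn and 2.44 in WT) and Hoxb7 (1.42 in Tn and 2.00 CPM per kb in WT).

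The Hoxa cluster lies on chromosome 6 (GRCm39, minus strand), with Hoxa2 to Hoxa13 between 52139397 and 52237788. Of its 9 tested genes 7 fell, 1 rose and 1 did not pass, beside 17.4% of all genes tested that fell and 19.5% that rose. Hoxa5, which patterns the neck and upper trunk and the lung and whose loss has been described in human breast carcinoma, ran from 77.9 to 106 CPM (median 96.8) in Tn tumours and from 135 to 166 CPM (median 159) in WT tumours. The groups did not overlap, with the Tn tumours lower. For Hoxa5 the log2 fold change was -0.71 ± 0.08 (edgeR adjusted p = 7.36e-05), the smallest p of the tested Hox genes, and the Tn mean was 61.1% of the WT mean.

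Hoxa3, needed for the thymus and parathyroid, ran from 14.5 to 21.1 CPM (median 18.7) in Tn tumours and from 24.05 to 32.2 CPM (median 27.4) in WT tumours (log2 fold change -0.65 ± 0.11, edgeR adjusted p = 0.000674). Hoxa6, a gene of the upper trunk, ran from 4.14 to 6.07 CPM (median 4.44) in Tn and from 7.18 to 10.2 CPM (median 8.51) in WT tumours (-0.85 ± 0.13, edgeR adjusted p = 0.000487). Neither gene overlapped between the groups. Hoxa2 (-0.39), a gene of the hindbrain, and Hoxa4 (-0.95) fell as well. Hoxa9, a regulator of blood progenitors and of the mammary gland, fell most within the cluster, to a median of 1.59 CPM (0.817 to 2.03) in Tn tumours, against a median of 3.09 CPM (2.45 to 4.42) in WT tumours, with a log2 fold change of -1.05 ± 0.24 (edgeR adjusted p = 0.00447).

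Hoxa10, which lies next to Hoxa9 and is known for its part in the uterus and the hind trunk, was the only Hox gene that rose. It ran from 22.5 to 43.6 CPM (median 28.7) in Tn tumours and from 17.9 to 24.7 CPM (median 21.8) in WT tumours. The groups overlapped, through Tn tumour 4, the lowest of its group, which lay below WT tumour 1. The log2 fold change was 0.51 ± 0.14 (edgeR adjusted p = 0.0136), and it stayed between 0.38 and 0.62 and past the threshold in 20 alternative fits, though not at an adjusted p under 0.01. As a share of all Hoxa CPM, Hoxa10 took 15.5% to 20.4% in the Tn tumours and 7.98% to 9.24% in the WT tumours, without overlap. The Hoxa sum itself was lower in Tn tumours, with Hoxa5 as its largest part, so a gene at an unchanged level gains share too. Hoxa7 thus took 7.20 ± 1.19% in Tn tumours and 5.00 ± 0.234% in WT tumours. Hoxa7, on the other side of Hoxa9, ran from 8.85 to 17.8 CPM (median 13.3) in Tn tumours and from 10.9 to 13.98 CPM (median 12.6) in WT tumours, and its log2 fold change of 0.05 ± 0.16 did not pass (edgeR adjusted p = 0.815). In Tn tumour 4, which held the B cell markers given above, 7 of the 9 tested Hoxa genes had their lowest value of the Tn group. WT tumour 2 held the lowest value of the WT group in 5 of the 9, together with the lowest sum of carcinoma epithelium markers in that group (2252 CPM, the other WT tumours 3627 to 4896). The part of either in the Hoxa levels was not tested.

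**Figure D3:**
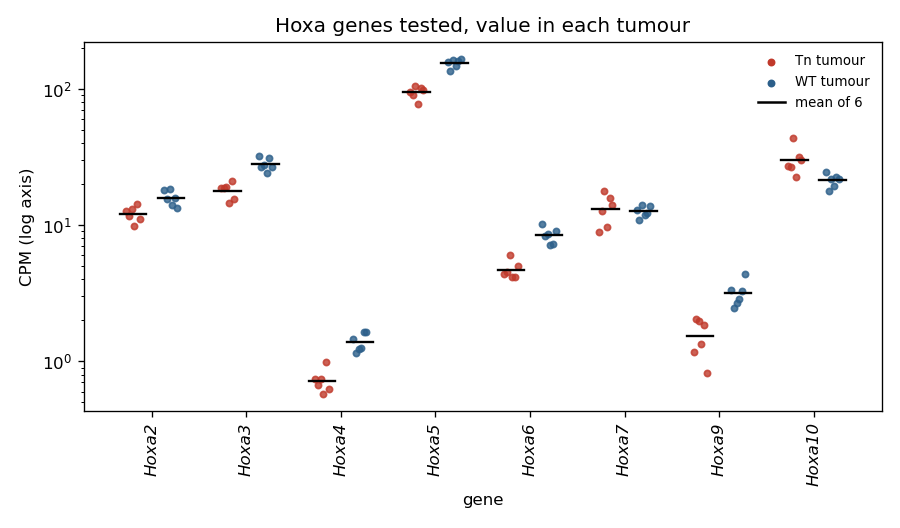
CPM of 8 of the 9 tested Hoxa genes (log axis) in each Tn tumour (left of each pair) and each WT tumour (right), with the mean of 6 as a line. Hoxa5 is highest, at 77.9 to 106 CPM in Tn and 135 to 166 CPM in WT tumours, and Hoxa10 is the gene past the threshold whose Tn mean is the higher one.

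The promoters of Hoxa5, Hoxa9 and Hoxa10 are shown because these genes hold the highest level, the largest fall and the only rise of the cluster. Each run is the 250 bases before a start in RefSeq (GRCm38.p6, minus strand, printed 5′ to 3′), and Hoxa10 has 2 starts there. Capitals mark matches, on either strand, to any of 4 short motifs. These are the TATA box, searched as TATAAA, the CCAAT box, searched as those letters, and the GC box, searched as GGGCGG. The last is TGATNNAT, a site shape bound by Hox proteins with Pbx partners.
Hoxa5, chr6:52204588-52204837: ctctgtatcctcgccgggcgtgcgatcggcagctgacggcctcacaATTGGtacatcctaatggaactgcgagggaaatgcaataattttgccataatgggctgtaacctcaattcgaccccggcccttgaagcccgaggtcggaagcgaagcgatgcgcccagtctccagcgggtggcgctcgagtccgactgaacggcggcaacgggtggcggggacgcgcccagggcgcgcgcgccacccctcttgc
Hoxa9, chr6:52227371-52227620: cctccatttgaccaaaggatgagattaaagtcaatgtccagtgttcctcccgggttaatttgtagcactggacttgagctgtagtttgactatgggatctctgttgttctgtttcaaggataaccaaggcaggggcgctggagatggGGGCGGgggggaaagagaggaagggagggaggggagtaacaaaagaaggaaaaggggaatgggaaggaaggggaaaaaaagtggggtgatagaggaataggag
Hoxa10 upstream start, chr6:52240855-52241104: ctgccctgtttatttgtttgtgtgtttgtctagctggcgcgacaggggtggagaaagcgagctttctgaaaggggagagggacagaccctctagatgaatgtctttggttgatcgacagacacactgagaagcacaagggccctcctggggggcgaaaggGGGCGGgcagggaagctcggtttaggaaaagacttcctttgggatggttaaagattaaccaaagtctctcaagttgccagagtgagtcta
Hoxa10 downstream start, chr6:52234940-52235189: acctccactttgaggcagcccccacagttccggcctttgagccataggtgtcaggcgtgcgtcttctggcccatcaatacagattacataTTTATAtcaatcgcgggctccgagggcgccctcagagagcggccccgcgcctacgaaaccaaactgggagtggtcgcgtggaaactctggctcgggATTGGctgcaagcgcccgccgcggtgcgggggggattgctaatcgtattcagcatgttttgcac
The Hoxa5 run holds a CCAAT box and 28 CpG steps, where the median of the 32851 promoters in the table is 6. The Hoxa9 run and the upstream Hoxa10 run hold a GC box each, with 3 and 7 CpG steps. The downstream Hoxa10 run holds a match to the TATA box, a CCAAT box and 20 CpG steps. That TATA match is on the opposite strand and not close to the start. Over all promoters 12.4% held the TATA box, 33.8% the CCAAT box, 32.7% the GC box and 7.7% the Hox and Pbx shape. Among the 24 promoters listed for 22 of the Hox genes, the shares were 16.7%, 58.3%, 41.7% and 16.7% in the same order. The counts are per gene, so which of the Hoxa10 starts was used in these tumours is not resolved.

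The Hoxb cluster lies on chromosome 11 (96085142 to 96259082, plus strand). Of 8 tested genes 7 fell, 0 rose and 1 did not pass, beside 17.4% of all genes tested that fell and 19.5% that rose. Hoxb9, the Hoxb member of the mammary trio, fell most: it ran from 0.497 to 1.00 CPM (median 0.857) in Tn tumours and from 1.90 to 3.72 CPM (median 2.25) in WT tumours, with no overlap. Its log2 fold change of -1.62 ± 0.22 (edgeR adjusted p = 0.00026) put the Tn mean at 32.5% of the WT mean.

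Hoxb3, a gene of the hindbrain and neck, ran from 0.238 to 0.431 CPM (median 0.368) in Tn and from 0.657 to 1.14 CPM (median 0.997) in WT tumours (-1.48 ± 0.21, edgeR adjusted p = 0.000342). Hoxb3os, the antisense transcript that covers 53.1% of the Hoxb3 exon bases and 27.3% of those of Hoxb2, fell along with it (-1.39), and since strand was not used in counting, reads over shared bases are assigned to neither gene and the remainder cannot be told apart by strand. Hoxb2 (-1.21), Hoxb4 (-0.79), a gene known from blood stem cells, Hoxb6 (-0.90) and Hoxb8 (-0.88), known for its part in microglia and grooming behaviour, fell as well. Hoxb8 ran from 1.37 to 2.54 CPM (median 1.84) in Tn and from 2.51 to 4.12 CPM (median 3.50) in WT tumours, overlapping only where Tn tumour 5 lay above WT tumour 1.

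Hoxb5 fell by 0.71 on the log2 scale (edgeR adjusted p = 0.0334), but the call ended without Tn tumour 1, 3 or 4 or WT tumour 2, 3, 4, 5 or 6, at adjusted p from 0.0502 to 0.068. It also ended without Tn tumours 4 and 6 and WT tumour 6 (-0.62, edgeR adjusted p = 0.141) and with no filter (edgeR adjusted p = 0.0874). Hoxb7, the highest of the cluster per kilobase, ran from 1.62 to 2.77 CPM (median 2.07) in Tn and from 1.90 to 3.69 CPM (median 3.12) in WT tumours, and its log2 fold change of -0.49 ± 0.19 did not pass (edgeR adjusted p = 0.0594). It passed without Tn tumour 4 (edgeR adjusted p = 0.0442), Tn tumour 5 (0.046) or WT tumour 1 (0.0179). Hoxb7 also passed with upper-quartile scaling (edgeR adjusted p = 0.0426), DESeq2 (adjusted p = 0.0268), limma voom (adjusted p = 0.0161) and the filter at a mean of 1 CPM (edgeR adjusted p = 0.0427).

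All 7 tested genes of the Hoxc cluster, on chromosome 15 (102829538 to 102945278, plus strand), fell, and in 6 of them the groups did not overlap. The log2 fold changes of the 7 Hoxc genes ran from -1.62 for Hoxc5 to -1.02 for Hoxc11, a narrower range than the -1.05 to 0.51 of Hoxa. Hoxc6, a gene of the upper trunk, ran from 1.38 to 2.60 CPM (median 1.79) in Tn tumours and from 3.69 to 7.22 CPM (median 5.33) in WT tumours (-1.49 ± 0.21, edgeR adjusted p = 0.000312), with a Tn mean at 35.6% of the WT mean.

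Hoxc10, a gene of the lumbar trunk and hindlimb, ran from 1.10 to 2.44 CPM (median 1.71) in Tn and from 2.98 to 6.60 CPM (median 4.72) in WT tumours (-1.41 ± 0.24, edgeR adjusted p = 0.000961). Hoxc8 and Hoxc9, genes of the thorax, fell by 1.47 and 1.35 on the log2 scale. Hoxc4 ran from 0.268 to 0.691 CPM (median 0.516) in Tn and from 0.888 to 1.83 CPM (median 1.35) in WT tumours (-1.42 ± 0.24, edgeR adjusted p = 0.000858). Hoxc5 ran from 0.197 to 0.416 CPM (median 0.279) in Tn and from 0.469 to 1.29 CPM (median 0.841) in WT tumours (-1.62 ± 0.27, edgeR adjusted p = 0.00076). In every one of the 7 genes WT tumour 1 was the lowest WT tumour, and in 6 of them WT tumour 6 was the highest.

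Hoxc11 was the lowest of the 7, at a mean of 0.144 CPM in Tn and 0.292 CPM in WT tumours, and its groups overlapped (edgeR adjusted p = 0.0379). Its call ended without Tn tumour 1, 2, 3, 5 or 6 or WT tumour 3, 4, 5 or 6, at adjusted p from 0.0536 to 0.0884, and with the replicate number as a block (edgeR adjusted p = 0.0741) or no filter (edgeR adjusted p = 0.0723).

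**Figure D4:**
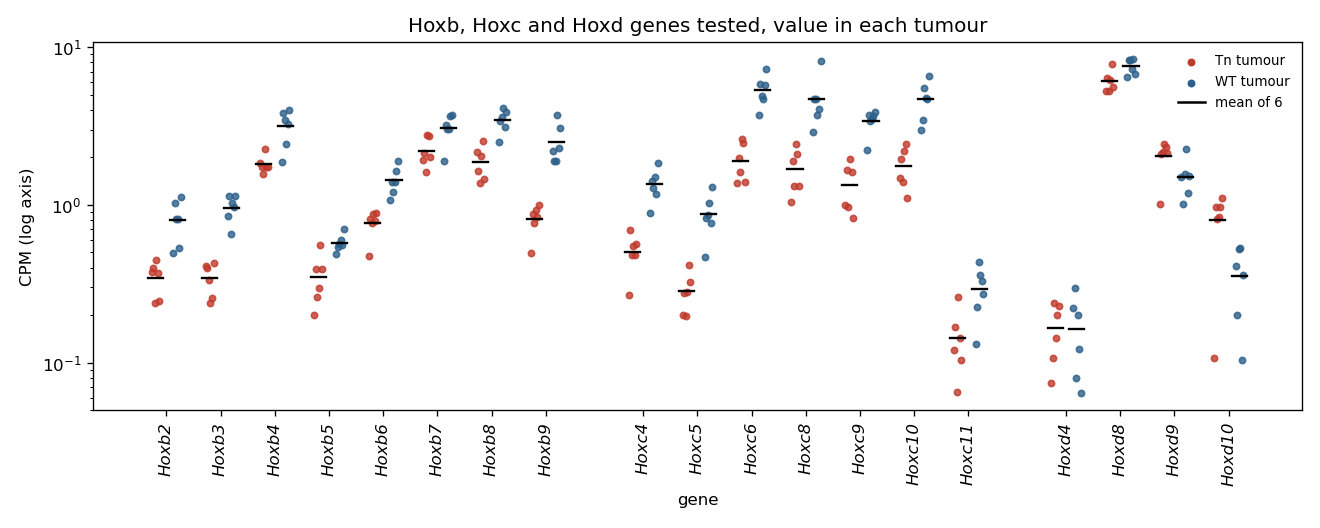
CPM of the tested Hoxb, Hoxc and Hoxd genes (log axis) in each Tn tumour (left of each pair) and each WT tumour (right), with the mean of 6 as a line. In Hoxc4, Hoxc5, Hoxc6, Hoxc8, Hoxc9 and Hoxc10 all Tn tumours lie below all WT tumours, while in Hoxd9 and Hoxd10 the Tn mean is the higher one and Tn tumour 1 lies far below the other Tn tumours.

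The 4 tested Hoxd genes did not pass in either direction, though 3 of them did under some alternatives. The cluster lies on chromosome 2 (74498654 to 74595486, plus strand), and 4 of its 9 genes were tested. Hoxd8 ran from 5.24 to 7.85 CPM (median 5.90) in Tn and from 6.44 to 8.40 CPM (median 7.74) in WT tumours (-0.31 ± 0.12, edgeR adjusted p = 0.0655), and it passed without Tn tumour 5 (-0.40, edgeR adjusted p = 0.0192). Hoxd8 also passed with upper-quartile scaling (edgeR adjusted p = 0.0411), DESeq2 (adjusted p = 0.0315), limma voom (adjusted p = 0.0215) and a filter at a mean of 1 CPM (edgeR adjusted p = 0.039), each time as lower in Tn tumours. Hoxd9, the Hoxd member of the mammary trio, ran from 1.01 to 2.44 CPM (median 2.16) in Tn and from 1.01 to 2.26 CPM (median 1.51) in WT tumours (0.43 ± 0.24, edgeR adjusted p = 0.178). Hoxd10, a gene of the lumbar trunk and hindlimb, stood at 0.812 to 1.11 CPM in 5 Tn tumours and at 0.107 CPM in Tn tumour 1, against 0.104 to 0.536 CPM (median 0.385) in WT tumours (1.16 ± 0.49, edgeR adjusted p = 0.0822). Without Tn tumour 1 both passed, Hoxd9 at 0.57 (edgeR adjusted p = 0.0455) and Hoxd10 at 1.4 (edgeR adjusted p = 0.0131). Hoxd9 passed in only this 1 of 20 alternatives. Hoxd10 passed in 2 of 19, the other being DESeq2 (adjusted p = 0.0499). With limma voom, Hoxd9 was at 0.23 (adjusted p = 0.496) and Hoxd10 at 0.75 (adjusted p = 0.382). Hoxd4 was low, at means of 0.166 CPM in Tn and 0.164 CPM in WT tumours, and 52.3% of its exon bases are shared with other genes, among them Hoxd3.

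Set by paralog number, the same position could differ between clusters. Among the paralogs numbered 9, Hoxa9, Hoxb9 and Hoxc9 fell by 1.05, 1.62 and 1.35 on the log2 scale, while Hoxd9 was at 0.43 and did not pass. Among the paralogs numbered 10, Hoxa10 rose by 0.51, Hoxc10 fell by 1.41 and Hoxd10 was at 1.16 and did not pass. The paralogs numbered 6 all fell, Hoxa6 by 0.85, Hoxb6 by 0.90 and Hoxc6 by 1.49. Both paralogs numbered 7 did not pass.

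The other 11 Hox genes were at or near 0 in both groups. Hoxc12 and Hoxd12 had 0 counts in all 12 tumours. The floor used here, 3 counts, stands for 0.0201 to 0.026 CPM per tumour. Both mates of a pair were counted, so a floor set in pairs would lie higher. Hoxb13, a gene of the prostate and tail, had 0 counts in Tn and 2 counts in WT tumours, and Hoxd13, a gene of digits and genitalia, also 0 in Tn and 2 in WT tumours. Hoxa11, Hoxa13, Hoxb1, Hoxd1, Hoxd3 and Hoxd11 had at most 36 counts over the 6 tumours of either group. Hoxc13, which acts in hair and nail, reached 0.119 CPM in Tn tumour 6 and 0.239 CPM in WT tumour 6 and 0.114 CPM in WT tumour 4, and these 3 tumours also held the highest sums of skin keratinocyte markers (3551, 837 and 515 CPM); its counts were too few for a test. In Hoxd3, 62.8% of exon bases are shared with other genes, so its level is uncertain.

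Several sets of cell type markers also differed between the groups. Of 12 fibroblast markers 11 fell and 1, Pdgfra, rose, and their sum was 3366 to 4804 CPM in Tn tumours and 8032 to 20615 CPM in WT tumours. WT tumour 1 was the lowest WT tumour in the 7 tested Hoxc genes and in 6 of the 8 tested Hoxb genes. It also held the lowest WT sums of fibroblast, pericyte and smooth muscle, endothelial and adipocyte markers. Its Hoxa sum, however, was the highest of the WT tumours (267 CPM). WT tumour 2, with the highest fibroblast sum (20615 CPM), had the lowest Hoxa sum of that group (225 CPM). Pericyte and smooth muscle markers summed to 102 to 312 CPM in Tn and 312 to 631 CPM in WT tumours, with 5 of 7 falling. Endothelial markers summed to 186 to 364 CPM in Tn and 275 to 475 CPM in WT tumours, with 5 of 7 falling. Of 8 carcinoma epithelium markers 3 fell, and the sums overlapped, at 2104 to 3697 CPM in Tn and 2252 to 4896 CPM in WT tumours. Krt8 and Krt18, at the levels given above, weigh heavily in these sums. The median log2 fold change of the 8 markers was -0.78. T cell markers rose in 7 of 7 and macrophage markers in 4 of 7. Beside all of these marker counts stand the 17.4% of all genes tested that fell and the 19.5% that rose. Adipocyte markers (34.8 to 498 CPM in Tn, 22.98 to 2277 CPM in WT) and skeletal muscle markers (4.74 to 149 CPM in Tn, 4.09 to 67.5 CPM in WT) overlapped between the groups. All 4 tested B cell markers rose, but their sums overlapped as well, at 1.37 to 1064 CPM in Tn and 0.736 to 4.03 CPM in WT tumours. The top value was that of Tn tumour 4, and Tn tumours 3, 5 and 6 lay within the WT range. The part of these cells in the Hox differences was not tested.

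**Figure D5:**
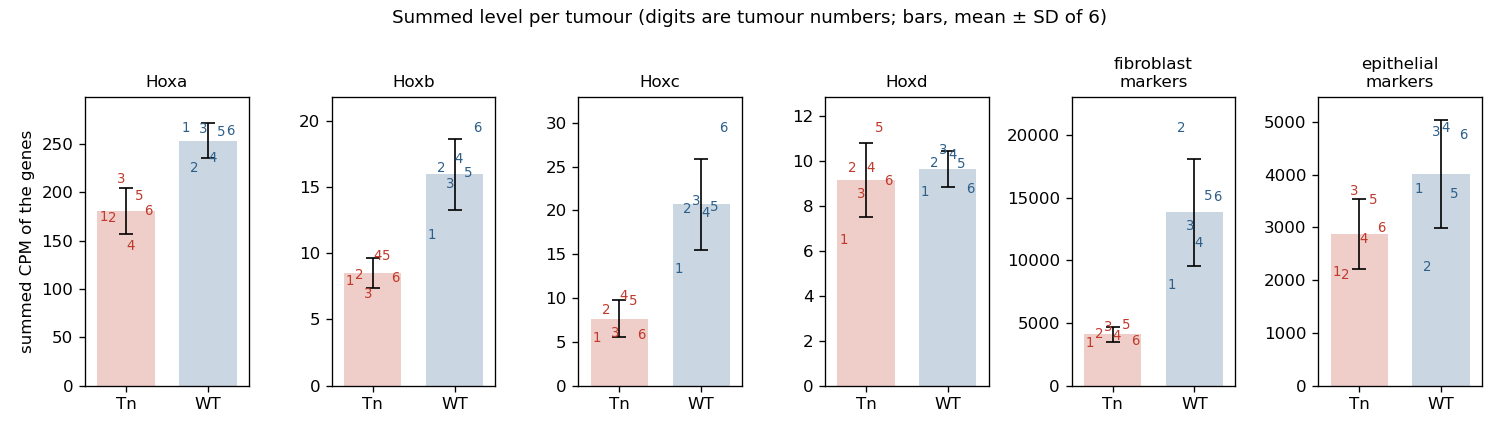
Summed CPM per tumour of the genes of each Hox cluster, of 12 fibroblast markers and of 8 carcinoma epithelium markers, in Tn tumours (left) and WT tumours (right); digits are tumour numbers, and bars with lines are mean ± SD of 6. Hoxa, Hoxb, Hoxc and fibroblast sums do not overlap between the groups, while Hoxd and the epithelial sum overlap. WT tumour 1 is the lowest WT tumour in Hoxb, Hoxc and the fibroblast sum and the highest in Hoxa.

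Among 18 other transcripts inside the clusters, mostly noncoding, 5 were tested, of which 3 fell and 1 rose, beside 17.4% and 19.5% of all genes tested. Hoxaas2 (-1.11 ± 0.17, edgeR adjusted p = 0.000432) and Hoxaas3 (-1.01 ± 0.19, edgeR adjusted p = 0.00181), antisense transcripts of the Hoxa cluster, fell with Hoxb3os. Hoxd3os1, an antisense transcript of the Hoxd cluster, rose by 0.44 (edgeR adjusted p = 0.0373). Hotair, Hottip and the genes of the miR-10 and miR-196 microRNAs that lie inside the clusters were at or near 0, and poly(A) libraries do not measure mature microRNAs.

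Of 16 tested genes on either side of the clusters 3 rose and 0 fell by edgeR's adjusted p, beside 19.5% and 17.4% of all genes tested, with a median log2 fold change of 0.16. Mtx2, a mitochondrial import protein beside Hoxd, rose by 0.31 (edgeR adjusted p = 0.00204), and Cbx1 and Atf2 by 0.15 and 0.24, while Tax1bp1 was at 0.16 and did not pass (edgeR adjusted p = 0.0568).

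Most partners of Hox proteins were expressed in both groups. Pbx4 was low, at means of 0.123 CPM in Tn and 0.0665 CPM in WT tumours. Of 9 TALE homeodomain cofactors, which bind DNA together with Hox proteins, 3 rose and 1 fell, beside 36.8% of all genes tested that changed in either direction. Pbx2 averaged 60.6 ± 3.21 CPM in Tn and 49.7 ± 3.09 CPM in WT tumours (log2 fold change 0.29 ± 0.06, edgeR adjusted p = 0.00237), Meis3 rose by 0.62, and Pknox1 fell by 0.27. The main Meis genes, Meis1 (0.06) and Meis2 (0.13), did not pass. Of the Cdx and paraHox genes, which act upstream of Hox genes or are their relatives, none of 6 reached the counts for a test.

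Polycomb proteins silence Hox genes and MLL proteins keep them active. Of 24 Polycomb genes 11 rose and 3 fell, beside 19.5% and 17.4% of all genes. Rnf2, a catalytic subunit of the first Polycomb complex, averaged 86.6 ± 6.45 CPM in Tn and 64.01 ± 4.44 CPM in WT tumours (0.44 ± 0.06, edgeR adjusted p = 0.00041), and Rbbp4 (0.34) and Phf1 (0.74) rose. The 3 that fell were Suz12 (-0.28), a core subunit of the second Polycomb complex, Phc3 (-0.43) and Phf19 (-0.39), and the methyltransferase Ezh2 was at -0.18 and did not pass; these 4 were named after their values were seen. Of 17 genes of MLL and trithorax factors 3 rose and 3 fell: Aff1 (-0.79) and the histone methyltransferase Dot1l (-0.59) fell, and Mllt3 (0.81) and Men1 (0.45) rose. Kmt2a, the MLL methyltransferase itself, was at 0.02 and did not pass.

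Retinoic acid is an inducer of Hox genes. Of 17 tested genes of its pathway 5 rose and 5 fell, beside 19.5% and 17.4% of all genes tested. Stra6, a receptor for the carrier of vitamin A, averaged 14.6 ± 5.11 CPM in Tn and 41.8 ± 5.72 CPM in WT tumours (-1.52 ± 0.20, edgeR adjusted p = 0.000209), and the receptor Rarb fell by 2.28. The receptor Rxrb rose by 0.38.

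Of 24 tested position factors of the limb, trunk and body wall, 13 fell and 2 rose, beside 17.4% of all genes tested that fell and 19.5% that rose. The list was not built as a set of markers of 1 cell type. Their median log2 fold change was -0.85, against 0.01 over all genes. Prrx1, a factor of limb and skin mesenchyme, averaged 28.1 ± 7.5 CPM in Tn and 80.8 ± 13.3 CPM in WT tumours (-1.52 ± 0.16, edgeR adjusted p = 6.06e-05). Tbx18, Tbx3 and Tbx5 fell by 1.38, 1.74 and 2.1 on the log2 scale. The 2 that rose were Nr2f1 (1.48) and the hindlimb factor Pitx1, both named after their values were seen.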

How the data were processed

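Per the labels, libraries of poly(A) RNA from tumour tissue kept the strand. The submitters' processing notes name fastp 0.23, STAR 2.7.11a, featureCounts and the build GRCm39. The authors deposited 1 table of raw counts per gene (Ensembl 112 exons), per the file headers, counted without strand and with both mates of a pair counted, so a gene and its antisense partner cannot be told apart. No option for reads that overlap several genes was set. Exon lengths in bases are in the deposited table and gave CPM per kilobase. Symbols come from GENCODE M39 (GRCm39) and matched 56630 of 57186 identifiers.

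All 12 tumours were compared with edgeR 4.0.16 (R 4.3.3): filterByExpr by group, TMM scaling, robust quasi-likelihood fits, two-sided tests with Benjamini-Hochberg adjustment over 19255 genes and a threshold of 0.05. The SE is the log2 fold change over the root of F. Sums and shares are descriptions with no test. The design text calls the 6 tumours of a group biological replicates, and no pair of libraries within a group was as close as counting error alone. Every Tn library name carries a lower number than every WT one, and an effect of that order cannot be told apart from the group. Alternatives used DESeq2 1.42.0, voom of limma 3.58.1 with quality weights, scaling by RLE or upper quartile, other filters, a stricter threshold, the replicate number as a block, and fewer tumours. The members and lists were chosen with earlier results of these data known. Values are given for the 8 falling Hox genes with the smallest p, Hoxa10, the 2 highest of each cluster and up to 4 genes per list by smallest p; other genes named were chosen after their values were seen, and a few genes that the rule names are not reported here.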

Additional observations from a re-analysis of the deposited data

Results flagged for a closer look

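Among the 28 tested Hox genes in each of the 2 groups, 5 values lay far from the other tumours of their group on the log2 CPM scale by Dixon's test, where chance flags about 1 in 20 groups. Tn tumour 1 was the lowest Tn tumour in 3 of these, with 0.476 CPM of Hoxb6, 1.01 CPM of Hoxd9 and 0.107 CPM of Hoxd10. WT tumour 1 was the lowest WT tumour in the others, with 1.90 CPM of Hoxb7 and 2.21 CPM of Hoxc9.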

How the results depend on the processing

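Of the 22 Hox calls, 19 held at the 0.05 threshold under every alternative in which the gene was tested. Of the other 3, Hoxb5 and Hoxc11 are named in the text. At a threshold of 0.01 these 3 and Hoxa2 and Hoxa10 lost their calls, and 0 called genes changed sign. The falling Hox genes numbered 17 to 23 over the alternatives, and 19 to 22 with single tumours left out. The rising Hox genes numbered 2 with DESeq2, which added Hoxd10, 0 at an adjusted p under 0.01 (edgeR, where Hoxa10 had an unadjusted p under 0.05), and 1 to 3 with single tumours left out, the 3 being without Tn tumour 1. At an adjusted p under 0.01, 2109 of all genes rose and 1916 fell. With a mean of at least 1 CPM, Hoxb2, Hoxb3, Hoxb5, Hoxc4, Hoxc5 and Hoxc11 were not tested. With the replicate number as a block, 20 Hox genes fell and 1 rose, and of the Hox calls that of Hoxc11 alone ended; same-numbered tumours correlated between -0.12 and 0.16, and 1 of 6 Tn numbers correlated best with its own, so the numbers were not taken as pairs. The 11 members that were not tested held 0 to 64 counts over all 12 tumours.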
